A study of Mus musculus with 20 samples.

Results

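The hearts compared here are those of 4 LS mice and 4 Ctrl mice, 8 of the 20 mice of the series, taken by their labels as all amyloid-negative transgenic hearts and all control hearts of the first sequencing run. LS mice are non-induced, amyloid-negative λS-DH mice: they were not injected with fibrils or soluble variable domain, and they are homozygous for the human λS light chain cDNA (a λ light chain from a patient with AL amyloidosis) in place of the Jκ segments of the mouse Ig kappa locus, driven by a mouse heavy chain promoter and made by plasma cells. Ctrl mice are DH-LMP2A mice (DH), which lack the human gene and make polyclonal mouse κ light chains. Both groups share the DH background, in which plasma cells form without heavy chains, so neither group can assemble whole antibodies. The human gene was targeted in E14 ES cells, which are of another mouse strain than the C57BL/6 blastocysts that received them. The Neo cassette was removed with a CMV-Cre deleter strain, and the number of ES clones behind the line and the remaining share of each strain in single mice were not given in the sources used here. In LS against Ctrl, the human light chain and the stretch of chromosome 6 that came with it therefore cannot be told apart. The study used adult mice of both sexes and age-matched controls, but the age of each mouse was not given. The remaining 12 mice were 7 AL mice (λS-DH with amyloid) of the first run, and 2 AL and 3 Ctrl mice of the second run.

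In light chain amyloidosis, a plasma cell clone secretes free light chains that misfold and deposit as fibrils, and the heart is the organ whose damage most often decides the outcome. Soluble amyloidogenic light chains have also been described as harmful to cardiomyocytes by themselves, through reactive oxygen species, p38 MAP kinase, disturbed lysosomes and mitochondria, and cell death. LS hearts are exposed to the soluble light chain without fibrils. The comparison with Ctrl therefore asks what carrying the human gene, with its stretch of chromosome 6, goes with in the transcriptome when amyloid is absent.

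Of 13788 genes tested, 4 (0.029%) differed between LS and Ctrl hearts, and all 4 lay on chromosome 6, which carries the Ig kappa locus. Osbpl3 and Ppm1k were higher and Pyurf and Snx10 lower in LS. No member of any of 40 lists of cardiac, metabolic, stress, immune and matrix genes was called. For 68.7% of the tested genes the 95% interval of the difference lay within a fold of 1.5 in either direction. Nr3c2, Gcnt1, Rnaset2a and Pot1b stood next in order of p and did not pass the test.

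The windows around the start sites of the 4 called genes are shown because these genes are the ones called. They are of the reference genome, and whether LS mice carry the same bases was not tested. They run from 250 bases before to 50 bases after the start (RefSeq, GRCm38.p6), 5′ to 3′ on the strand of the gene, and capitals mark GC boxes (GGGCGG or its reverse complement CCGCCC; boxes that overlap share bases). A window for each of the 4 genes was found, and for Snx10 the first of 3 is shown. The Osbpl3 window is chr6:50456121-50456420 (minus strand), that of Pyurf chr6:57692029-57692328 (minus strand), that of Snx10 chr6:51523653-51523952 (plus strand) and that of Ppm1k chr6:57535438-57535737 (minus strand).
Osbpl3: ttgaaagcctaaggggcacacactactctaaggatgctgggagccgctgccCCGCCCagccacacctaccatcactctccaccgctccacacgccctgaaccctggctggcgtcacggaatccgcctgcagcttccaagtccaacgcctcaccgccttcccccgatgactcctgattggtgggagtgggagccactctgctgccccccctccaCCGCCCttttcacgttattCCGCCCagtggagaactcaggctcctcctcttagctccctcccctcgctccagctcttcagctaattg
Pyurf: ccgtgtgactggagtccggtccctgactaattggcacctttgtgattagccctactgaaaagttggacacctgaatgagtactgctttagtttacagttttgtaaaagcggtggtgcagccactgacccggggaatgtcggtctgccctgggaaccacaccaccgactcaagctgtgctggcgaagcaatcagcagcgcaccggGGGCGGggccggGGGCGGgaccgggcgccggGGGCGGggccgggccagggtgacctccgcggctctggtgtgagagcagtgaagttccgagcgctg
Snx10: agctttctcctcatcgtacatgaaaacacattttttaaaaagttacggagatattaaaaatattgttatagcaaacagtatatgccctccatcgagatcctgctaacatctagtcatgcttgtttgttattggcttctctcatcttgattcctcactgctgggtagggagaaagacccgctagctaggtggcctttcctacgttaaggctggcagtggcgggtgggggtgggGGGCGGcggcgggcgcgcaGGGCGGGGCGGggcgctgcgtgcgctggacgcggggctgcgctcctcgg
Ppm1k: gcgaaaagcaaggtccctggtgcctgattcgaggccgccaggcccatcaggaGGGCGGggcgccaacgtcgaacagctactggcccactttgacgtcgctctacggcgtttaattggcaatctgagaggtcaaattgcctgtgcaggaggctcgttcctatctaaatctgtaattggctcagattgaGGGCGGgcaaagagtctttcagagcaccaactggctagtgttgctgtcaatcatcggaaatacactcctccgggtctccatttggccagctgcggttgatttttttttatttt
GC boxes numbered 3 in the windows of Osbpl3, Pyurf and Snx10 and 2 in that of Ppm1k. Of all 32851 windows of this length, 35.7% held at least 1, and these windows were not limited to the genes tested here. A CCAAT box (CCAAT or ATTGG) was found in each of the 4 windows, with 2 in that of Ppm1k, and in 37.4% of all windows. The letters TATAAA or TTTATA were in none of the 4 windows and in 13.6% of all windows. The GC content was 62% for Osbpl3, 62.7% for Pyurf, 54.3% for Snx10 and 52.7% for Ppm1k, against a median of 52.7%. Windows of the genes called higher and of those called lower both held GC boxes and lacked these TATA letters.

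Values are given as CPM, a gene's counts relative to the TMM-scaled total of its library, and differences as log2 fold changes (log2FC, LS minus Ctrl) of edgeR's quasi-likelihood test. A gene was called when its FDR, the Benjamini-Hochberg adjusted p over all tested genes, was under 0.05 and its log2FC was 0.58 or more in either direction, a fold of 1.5. Total counts of the 8 libraries lay between 43993277 and 60152320, and 29.4% to 37.1% of them came from mitochondrially encoded genes. The hearts held ventricular markers at high level, with Myh6 between 22150 and 27210 CPM and Myl2 between 7263 and 9803 CPM, while the atrial light chain gene Myl7 was at 0.069 to 0.32 CPM. Xist and Y-linked genes marked LS2, LS3, Ctrl1, Ctrl2 and Ctrl3 as female and LS1, LS4 and Ctrl4 as male, so that the groups had unequal numbers of each sex. The median correlation of libraries was 0.9658 between groups (16 pairs), 0.9704 within LS (6 pairs) and 0.9662 within Ctrl (6 pairs). Nothing in the labels says that the mice of a group came from separate litters or days, and bulk tissue cannot tell fewer cells of a type from less RNA per cell.

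The mouse κ constant region gene Igkc, at the modified locus, is a check of the labels. It had 4, 2, 1 and 0 counts in LS1 to LS4 and 8, 274, 22 and 30 counts in Ctrl1 to Ctrl4, so that each LS library was below every Ctrl library. Ctrl2 held most of the Ctrl counts, and LS1 and Ctrl1, at 4 and 8 counts, lay close together. In the first run AL1 to AL7 had 0 to 6 counts. In the second run AL8 and AL9 had 0 counts and Ctrl5 to Ctrl7 had 0, 6 and 5. These low counts did not set Ctrl5 apart from AL mice. The joining chain gene Jchain, of antibody-secreting cells, had 42, 8, 19 and 68 counts in LS and 158, 169, 33 and 32 in Ctrl, with overlap (log2FC -1.49 ± 0.725 SE, FDR 0.593). The λ constant region gene Iglc1 had 123, 8, 38 and 68 counts in LS and 199, 41, 8 and 7 in Ctrl (log2FC -0.05 ± 1.08), and Ighm, the μ heavy chain gene, had a log2FC of -0.01 ± 0.295. The sign of the Iglc1 and Ighm differences turned with the fitting method. No column of the files is labelled as the human light chain, so its transcript was not analysed here.

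Osbpl3, which encodes an oxysterol-binding-related protein of membrane contact sites, lies at chr6:50293330-50456201 (minus strand, GRCm38), 20.27 Mb before Igkc. Its level was 58.16, 56.54, 59.54 and 49.25 CPM in LS1 to LS4, and 19.84, 17.03, 19.58 and 21.78 CPM in Ctrl1 to Ctrl4. The lowest LS heart was above the highest Ctrl heart, and the log2FC was 1.51 ± 0.0898 (SE, n = 4 and 4, FDR 0.000479). Pyurf, whose product acts in mitochondria on complex I and coenzyme Q assembly and whose transcript also carries the reading frame of Pigy, lies at chr6:57686576-57692078 (minus strand), 13.03 Mb before Igkc. Its level was 13.7, 13.15, 13.04 and 14.29 CPM in LS and 31.55, 31.94, 38.39 and 38.48 CPM in Ctrl. All LS hearts were below all Ctrl hearts, with a log2FC of -1.37 ± 0.0835 (FDR 0.000479). Both genes were called under each of 21 alternative settings.

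Snx10, a sorting nexin of endosomes, lies at chr6:51523901-51590679 (plus strand), 19.14 Mb before Igkc. It stood at 8.087, 9.169, 9.22 and 7.498 CPM in LS and at 17.27, 14.38, 14.38 and 15.54 CPM in Ctrl, again without overlap (log2FC -0.86 ± 0.0934, FDR 0.0338). Ppm1k, the mitochondrial phosphatase that activates the branched-chain ketoacid dehydrogenase complex and so the breakdown of branched-chain amino acids, lies at chr6:57506502-57535468 (minus strand), 13.19 Mb before Igkc. It stood at 194.4, 239.8, 218.5 and 236.7 CPM in LS and at 112.3, 118.8, 126.5 and 141.6 CPM in Ctrl (log2FC 0.83 ± 0.0921, FDR 0.0338). The lowest LS heart was above the highest Ctrl heart. The call of Snx10 was lost without any single one of the 8 mice, with an FDR between 0.078 and 0.164, while its log2FC stayed between -0.90 and -0.80. Ppm1k lost its call without LS2, LS3, LS4, Ctrl1, Ctrl2 or Ctrl3 (FDR between 0.118 and 0.204) and kept it without LS1 or Ctrl4. Both calls were also lost with Xist or the liver genes as a covariate, after ComBat-seq adjustment of all 20 mice (FDR 0.237 for Snx10 and 0.334 for Ppm1k) and with the replicate block (0.326 and 0.0782). Ppm1k lost its call with the AL mice of the first run in the fit (FDR 0.536) and with all 20 mice and a run term (0.404).

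**Figure D1:**
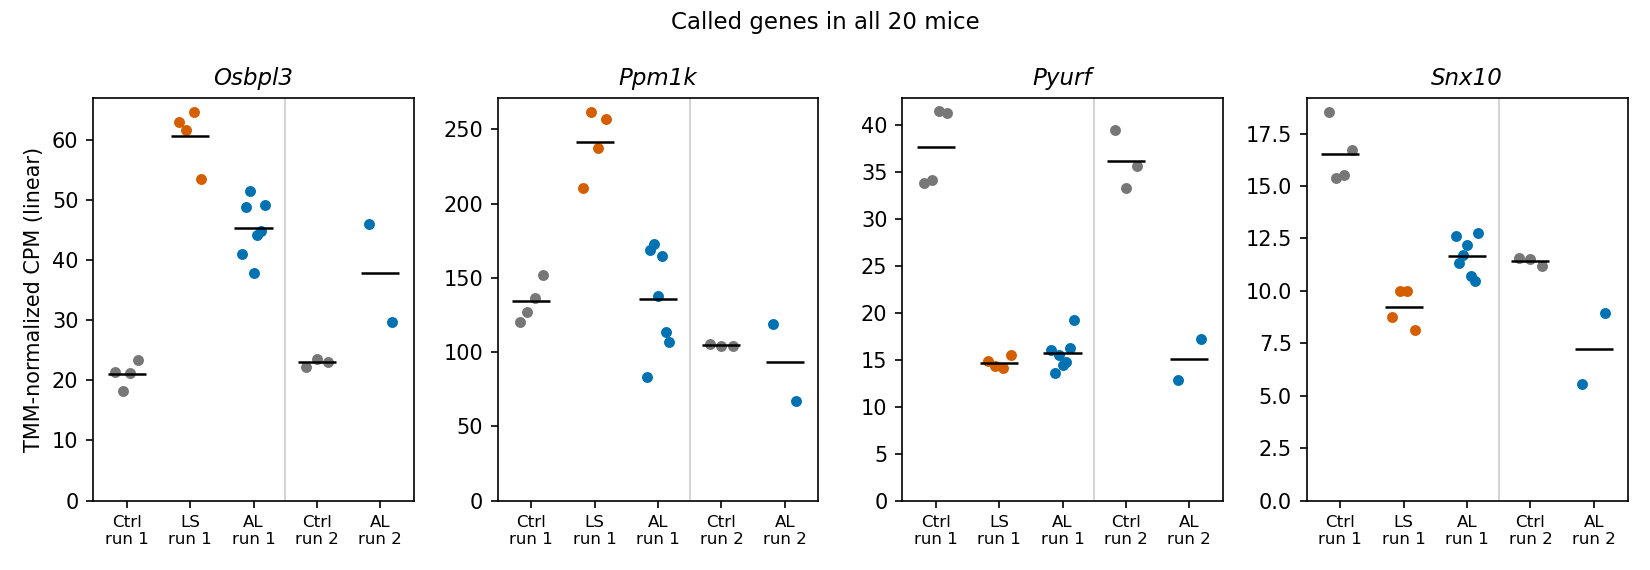
Level of the 4 called genes in all 20 mice, in TMM-normalized CPM on a linear axis, by group and sequencing run; each point is 1 mouse and each line a group mean, and the scaling uses all 20 mice, so values differ slightly from those of the 8 mice alone. LS and Ctrl of the first run do not overlap for any of the 4 genes. In λS-DH mice, Pyurf is lower and Osbpl3 higher than in Ctrl mice of both runs, while Ppm1k overlaps between AL and Ctrl.

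The second run offers mice that the comparison of LS with Ctrl did not use. Its 2 AL mice carry the same insertion as LS mice, and also amyloid, and its 3 Ctrl mice do not carry it. The second-run libraries held 7867642 to 11794615 counts, against 43993277 to 60152320 in LS and Ctrl of the first run. Xist, at 0 to 2 counts, and Ddx3y, at 226 to 886 counts, marked all 5 as male, while LS and Ctrl of the first run held both sexes. The values come from a fit of all 20 mice, with the spread estimated over both runs. Pyurf was lower in AL, at 12.86 to 17.23 CPM against 33.35 to 39.53 CPM (log2FC -1.26, FDR 0.000383). Osbpl3 was higher, at 29.77 to 45.91 against 22.27 to 23.62 CPM (log2FC 0.71, FDR 0.00992), and Snx10 lower, at 5.547 to 8.955 against 11.19 to 11.58 CPM (log2FC -0.64, FDR 0.0187). For these 3 genes the direction was that of LS against Ctrl. Ppm1k was not called, with AL at 66.87 and 119.1 CPM on either side of Ctrl at 103.9 to 105.2 CPM (log2FC -0.17, FDR 0.707). In the second run, 8.18% of 15032 genes were called between AL and Ctrl, so a call there by itself is not rare. From the 5 mice alone none of the 3 passed, as the FDR was 0.256 for Osbpl3, 0.138 for Pyurf and 0.38 for Snx10. In the 7 AL mice of the first run, Osbpl3 ranged from 37.92 to 51.44 CPM, Pyurf from 13.56 to 19.25, Snx10 from 10.46 to 12.76 and Ppm1k from 83.25 to 173 CPM.

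By position, the called genes formed 2 pairs. Of all tested genes 0.029% were called, against 0.583% (4 of 686) of those on chromosome 6 and none on the other chromosomes. The share of genes with an unadjusted p under 0.05 was 8.59% (1185 genes) in all, 9.77% on chromosome 6, and from 5.38% to 10.9% over the chromosomes. Within chromosome 6, the 25 Mb before Igkc held 14 such genes of 93 (15.1%), and the 25 Mb after it 18 of 149 (12.1%). Farther away these were 16 of 155 (10.3%) before and 19 of 289 (6.57%) after. Over these 25 Mb the share was above that of all genes on both sides, and all 4 calls stood on the side before Igkc. Next to the locus it was not above. It was 0 of 7 genes from 10 to 5 Mb before Igkc, 0 of 5 in the last 5 Mb, and 2 of 35 (5.71%) in the first 5 Mb after it. From 10 to 15 Mb away it was 8 of 16 before and 8 of 42 (19%) after.

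The stretch from 10 to 15 Mb before Igkc, which was picked out after its values were seen, held 8 genes with an unadjusted p under 0.05 among 16 tested (50%). In 7 of the 16 the 4 LS hearts did not overlap the 4 Ctrl hearts, against 4.9% of all genes. Besides Pyurf and Ppm1k these were Lsm5, an RNA-binding protein of the spliceosome (log2FC 0.47), Herc3, a ubiquitin ligase (0.25), Herc6, an interferon-inducible ligase for ISG15 (-0.67), Lancl2 (-0.27) and Fkbp9, a prolyl isomerase of the endoplasmic reticulum (-0.19). Abcg2, an efflux transporter of stem and endothelial cells, had a log2FC of 0.25 with overlap. Genes in both directions were thus interleaved within 5 Mb. Lancl2 overlaps Vopp1 and Herc3 overlaps Nap1l5 on the opposite strand. In the second run Lancl2 was at -0.57 (FDR 0.0554), while Abcg2 was at -0.59 (FDR 0.0275), opposite in sign to the first run, as were Herc3 (-0.46, FDR 0.216) and Ppm1k. In fits of all 20 mice the number of genes with an unadjusted p under 0.05 was 4 with a run term and 3 after ComBat-seq.

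The nearest genes on either side of the locus showed no call, where 0.029% of all tested genes were called. The lack of calls among so few genes says little by itself. Those described here were Serbp1, Gadd45a, Gng12 and Mad2l1 before Igkc, and Rpia, Eif2ak3, Rpl34-ps1, Thnsl2 and Fabp1 after it. None of these genes had an unadjusted p under 0.05, against 8.59% of all genes. Their log2FC lay between -1.09 for Fabp1, the liver fatty acid-binding protein gene, and 0.54 for the pseudogene Rpl34-ps1, whose reads may be split with Rpl34. Serbp1, an mRNA-binding protein gene, was the one whose groups did not overlap (228.2 to 244.3 CPM in LS, 215.4 to 227.1 in Ctrl, log2FC 0.10). Over all genes, 4.9% did not overlap. Gadd45a (-0.09), Gng12 (-0.03), Mad2l1 (-0.12), Rpia (-0.10), Eif2ak3 (-0.01) and Thnsl2 (0.07) lay close to 0.

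**Figure D2:**
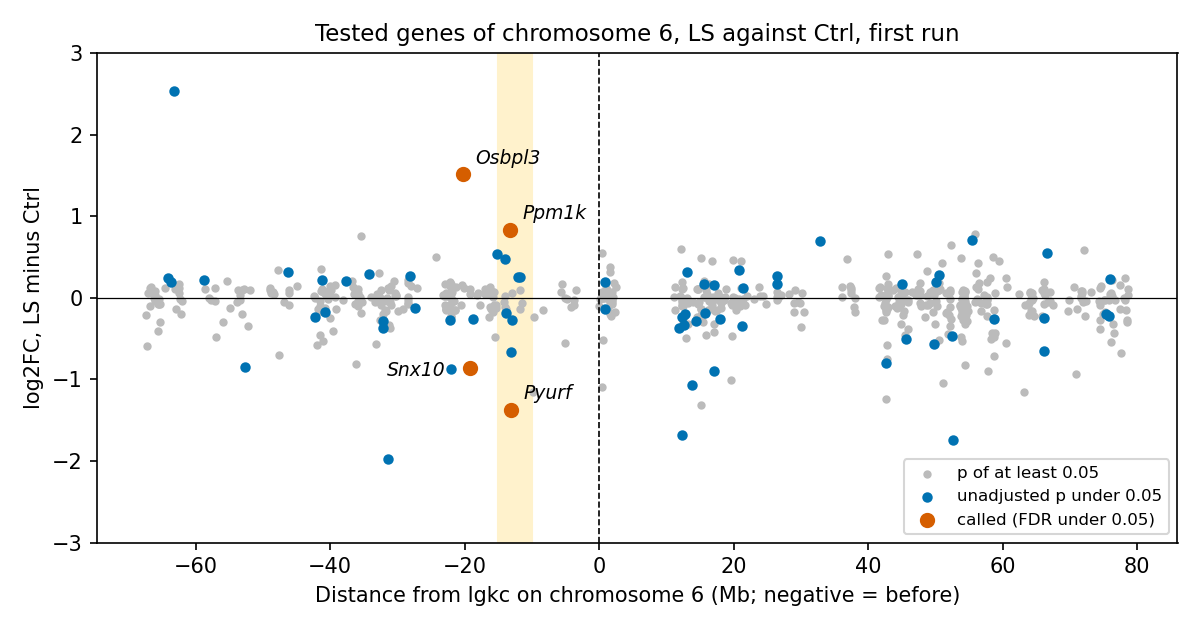
Difference between LS and Ctrl (log2FC, vertical axis) of the 686 tested genes of chromosome 6 against their distance from Igkc in Mb (horizontal axis, negative before the locus); the dashed line is Igkc and the shaded band is 10 to 15 Mb before it. The 4 called genes lie between 13.03 and 20.27 Mb before Igkc, and 8 of 16 genes in the band have an unadjusted p under 0.05.

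The genes that followed the 4 calls in order of p had an FDR between 0.343 and 0.547, and none was called. Nr3c2, the mineralocorticoid receptor gene, was at 24.37, 23.02, 23.07 and 21.3 CPM in LS and 16.63, 11.21, 14.38 and 12.42 CPM in Ctrl (log2FC 0.75 ± 0.117, FDR 0.343). Gcnt1, a glycosyltransferase of core 2 O-glycans, was at 21.64, 18.44, 34.1 and 19.26 CPM in LS and 4.681, 8.15, 3.768 and 8.663 CPM in Ctrl (log2FC 1.88 ± 0.306, FDR 0.343). Pot1b, a telomere-binding protein gene, was near the detection floor in LS (0.1748, 0, 0.09408 and 0.03554 CPM) and at 3.056, 0.7118, 2.82 and 1.668 CPM in Ctrl (log2FC -4.76 ± 0.779, FDR 0.343). In these 3 genes the groups did not overlap, against 4.9% of all genes. They were picked by p from these same hearts, which favours genes without overlap. The likelihood ratio test of edgeR called all 3 and DESeq2 did too, with an FDR from 3.92e-06 to 0.000134 and from 1.71e-08 to 1.5e-05. Gcnt1 was also called after ComBat-seq (FDR 0.0296) and Pot1b with the liver genes as a covariate (FDR 0.0272). In the second run they were at -0.65 (FDR 0.251), 0.82 (FDR 0.411) and -0.40 (FDR 0.888).

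The other 18 of these genes had absolute differences of at most 0.70. Their groups did not overlap either, against 4.9% of all genes, which the choice by lowest p favours. Lower values in LS were found for the β2 integrin gene Itgb2, at 5.526 to 6.115 CPM against 6.888 to 10.1 (log2FC -0.60, FDR 0.547), and the cytokine receptor kinase gene Jak3, at 5.126 to 7.431 against 8.375 to 11.62 (-0.70, FDR 0.547). DESeq2 called both, and Nav3, a cytoskeletal protein gene (0.61), as well. Also lower in value were Srebf1, a regulator of lipid synthesis (-0.31), and Lipe, the hormone-sensitive lipase gene (-0.38). Higher values were found for Ebf1, a transcription factor of B cells and stromal cells (0.48), Il13ra1, an IL-13 receptor chain (0.28), Tceal8 (0.49), Ttll1, a tubulin glutamylase gene (0.33), Pdp1, which activates pyruvate dehydrogenase (0.30), and Ndufb9 of complex I (0.21). Values were lower for Rnaset2a (-0.34), whose reads may be split with its near-identical neighbour Rnaset2b, Bicra (-0.41), Trim7 (-0.56), Tcirg1, a subunit of the vacuolar proton pump (-0.44), Gclc, the catalytic subunit of glutathione synthesis (-0.29), Mrpl17 (-0.27) and Hjurp (-0.33). Srebf1 overlaps Rai1 on the other strand.

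**Figure D3:**
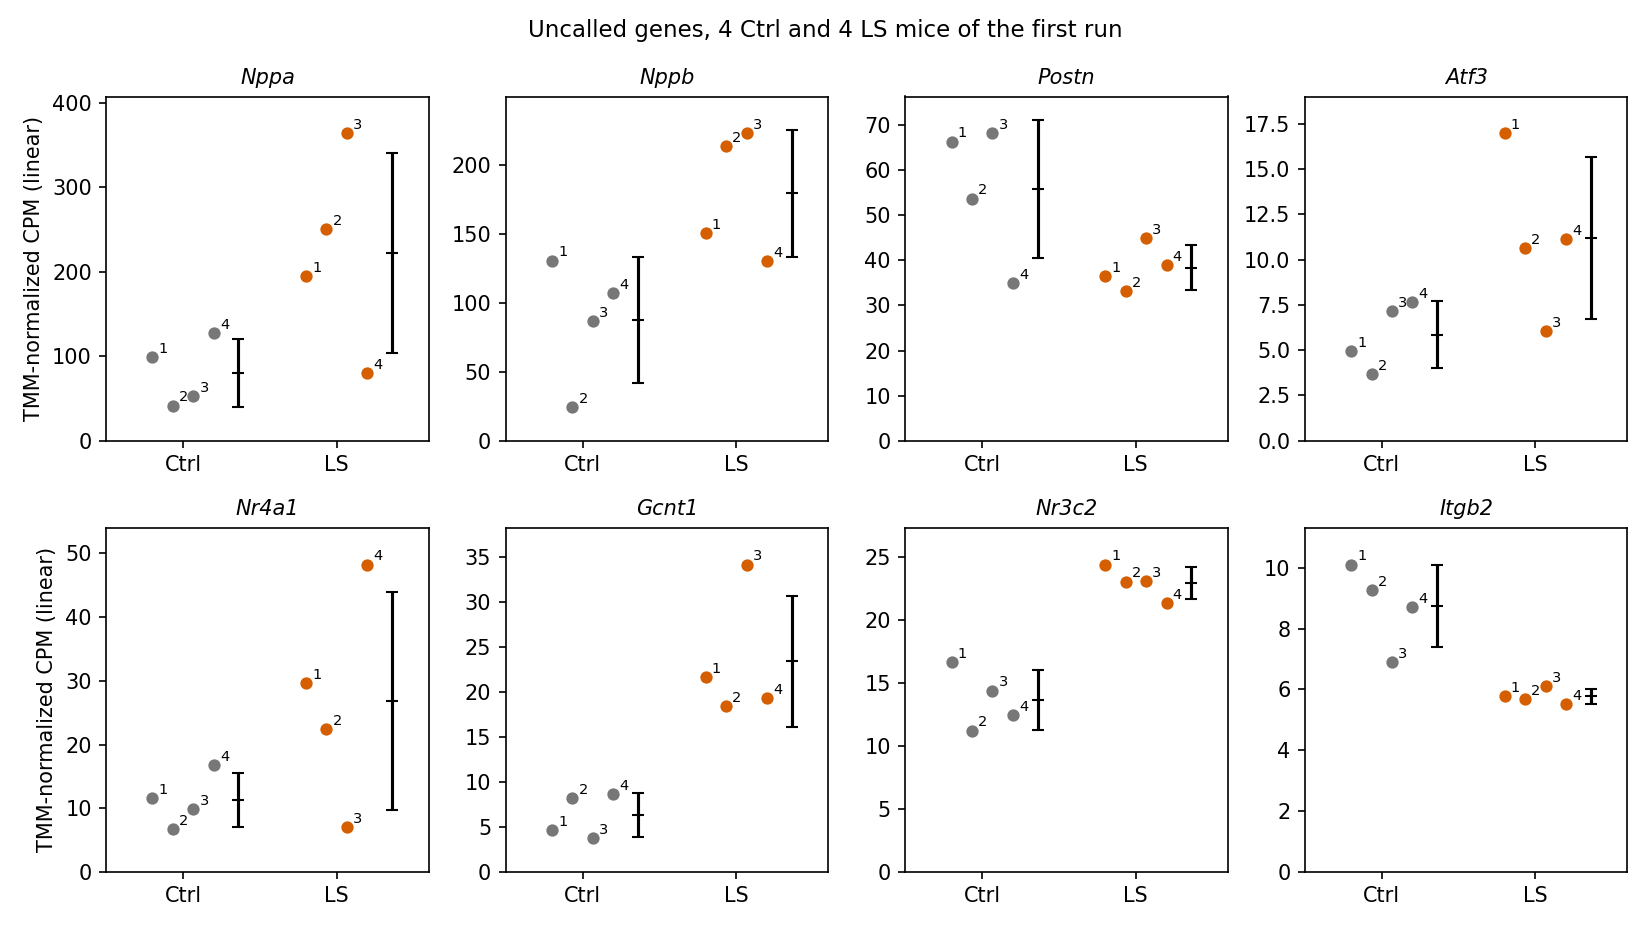
Level of 8 genes that were not called, in TMM-normalized CPM on a linear axis from 0, in 4 Ctrl and 4 LS hearts of the first run; numbers beside points name the mouse, and bars give the mean with 1 SD. Nr3c2, Gcnt1 and Itgb2 do not overlap between groups, whereas Nppa, Nppb, Postn, Atf3 and Nr4a1 do.

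Markers of cardiac stress were not called, where 0.029% of all tested genes were. Nppa, which encodes atrial natriuretic peptide, was at 194.7, 250.2, 363.6 and 80.26 CPM in LS and 98.84, 41.45, 52.47 and 127.2 CPM in Ctrl (log2FC 1.47 ± 0.485, unadjusted p 0.0144, FDR 0.547). LS1, LS2 and LS3 were above every Ctrl heart and LS4 was below Ctrl1 and Ctrl4. Nppb, the gene of the peptide behind NT-proBNP, was at 150.5, 213.8, 222.9 and 130.3 CPM in LS and 130.6, 24.33, 87.03 and 107.2 CPM in Ctrl (log2FC 1.04 ± 0.434, unadjusted p 0.0409, FDR 0.575), with only LS4 and Ctrl1 out of order. Their 95% intervals, 0.30 to 2.55 and 0.16 to 2.33, reached beyond a fold of 4. In larger groups the study measured NT-proBNP in plasma and reported no difference between amyloid-negative λS-DH mice and DH mice. That is a protein level in plasma, whereas the values here are RNA of the heart apex. Of the 21 tested stress markers, 7 were higher in LS and the median log2FC was -0.27, against -0.01 over all genes. In the fits of all 20 mice the median of these markers was 0.05 with a run term and 0.09 after ComBat-seq. Postn, a matrix protein gene of activated fibroblasts, was at -0.54 (unadjusted p 0.0236), and Lgals3, galectin 3, at -0.65 (0.0278).

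Genes that the study names in amyloid hearts, 17 in number, were chosen there on these same libraries, LS and Ctrl among the reference mice, and are no independent list. In LS against Ctrl none was called, where 0.029% of all tested genes were. Of the 17 genes, 5 were higher in value and the median log2FC was -0.17, or 0.18 and 0.22 in the 2 fits of all 20 mice. Beside Nppa and Nppb, those with an unadjusted p under 0.05 were Lgals3 and Adam15 (-0.24, p 0.0326), both lower in LS. Nmrk2, a nicotinamide riboside kinase gene of stressed heart, was at 0.35 ± 0.437, and Gpnmb, of lipid-laden macrophages, at 0.13 ± 0.445, and the sign of the latter turned with the method. Irf7 (-0.66 ± 0.477), Timp1 (-0.30 ± 0.437) and Mmp12, macrophage elastase (-0.69 ± 0.587), had 95% intervals that reached below a fold of 2 lower. Of the other matrix and protease genes, Col1a2 was at -0.01, Col16a1 at -0.17, Col27a1 at -0.30, Mmp3 at -0.16, Mmp19 at -0.24, Adamts2 at 0.05, Ltbp2 at -0.11 and Fn1 at -0.36. Of the 17 genes, 3 had a 95% interval within a fold of 1.5, against 68.7% of all genes (84.6% of all genes had one within a fold of 2), so most of these genes were bounded less tightly than the average gene.

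**Figure D4:**
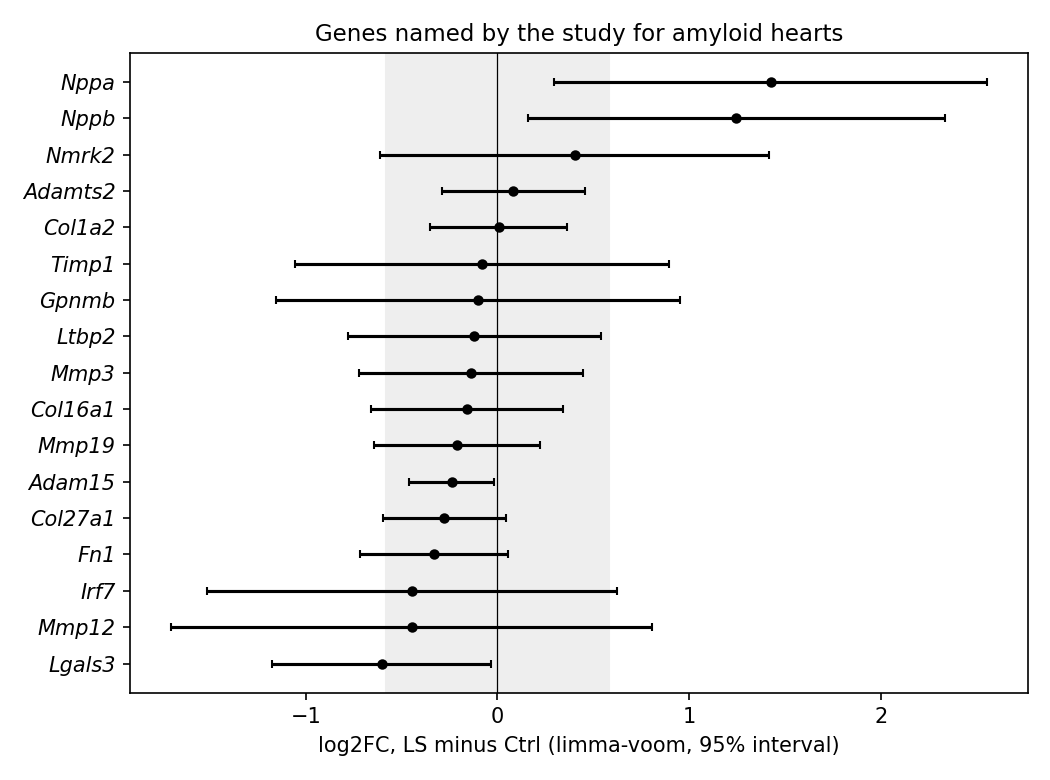
Difference between LS and Ctrl (log2FC with its 95% interval from limma-voom, n = 4 and 4) of 17 genes that the study names in amyloid hearts; the grey band is a fold of 1.5 in either direction. Intervals of 3 genes lie within the band, and those of Nppa and Nppb lie above 0.

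The responses described for soluble light chains in the heart were covered by lists, none of which had a called member. With 0.029% of all tested genes called, lists of this size would seldom hold one, so their lack of calls says little by itself. Over all genes, 4.01% had an unadjusted p under 0.05 and were higher in LS, and 4.58% were lower. Of 34 genes of the reactive oxygen and NRF2 response, 0 were at that level higher and 6 lower (17.6%), with a median of -0.05. Gpx1, a glutathione peroxidase gene, was at -0.60 and Gclc at -0.29, while Gstm1 (0.16) and Txn1 (0.12) had the lowest p among the higher ones, at 0.0657 and 0.172. Of 19 genes of p38 and stress kinase signalling, 1 was higher, Mapkapk2, a kinase downstream of p38 (0.22, p 0.00724), and the median was -0.01. Mapk9 was at 0.09, Map2k3, which activates p38, at -0.11 and Gadd45b at -0.62, and these did not reach that level.

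For the unfolded protein and integrated stress response, 2 of 33 genes were higher and 2 lower, with a median of 0. The higher ones were Atf3 (0.93), a stress-induced transcription factor, at 16.98, 10.62, 6.04 and 11.14 CPM in LS and 4.952, 3.684, 7.143 and 7.658 CPM in Ctrl, and Hspa5 (0.28), the chaperone BiP. The groups overlapped through LS3 in the case of Atf3. The lower ones, Herpud1 (-0.56) and Syvn1 (-0.30), act in the degradation of proteins from the endoplasmic reticulum. Of 20 heat shock and chaperone genes, 3 were higher and 0 lower, among them Hspe1 of mitochondria (0.21) and the small heat shock protein gene Cryab (0.18), and the median was 0.05. Hsf1 was at -0.08 and Hspb6 at -0.13.

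Of 31 genes of apoptosis, necroptosis and the inflammasome, 1 was higher (Bik, 0.69) and 2 were lower, Ripk3, the necroptosis kinase (-0.59), and Nlrp3, the inflammasome sensor (-0.92). Bcl2 was at 0.19 (p 0.238), and the median was -0.09. Of 41 lysosome and autophagy genes, 4 were higher and 1 lower, and 40 of the 41 had a 95% interval within a fold of 1.5. Lamp2, a lysosomal membrane protein (0.16), and Gabarap, of autophagosomes (0.14), had the lowest p among the higher ones, and Sqstm1, the autophagy receptor p62 (-0.17), and Ctss (-0.28, p 0.0514) among the lower ones. Lysosomal genes were thus the list of this group bounded most closely, and cell death genes, with 18 of 31 within that fold, were bounded less.

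**Figure D5:**
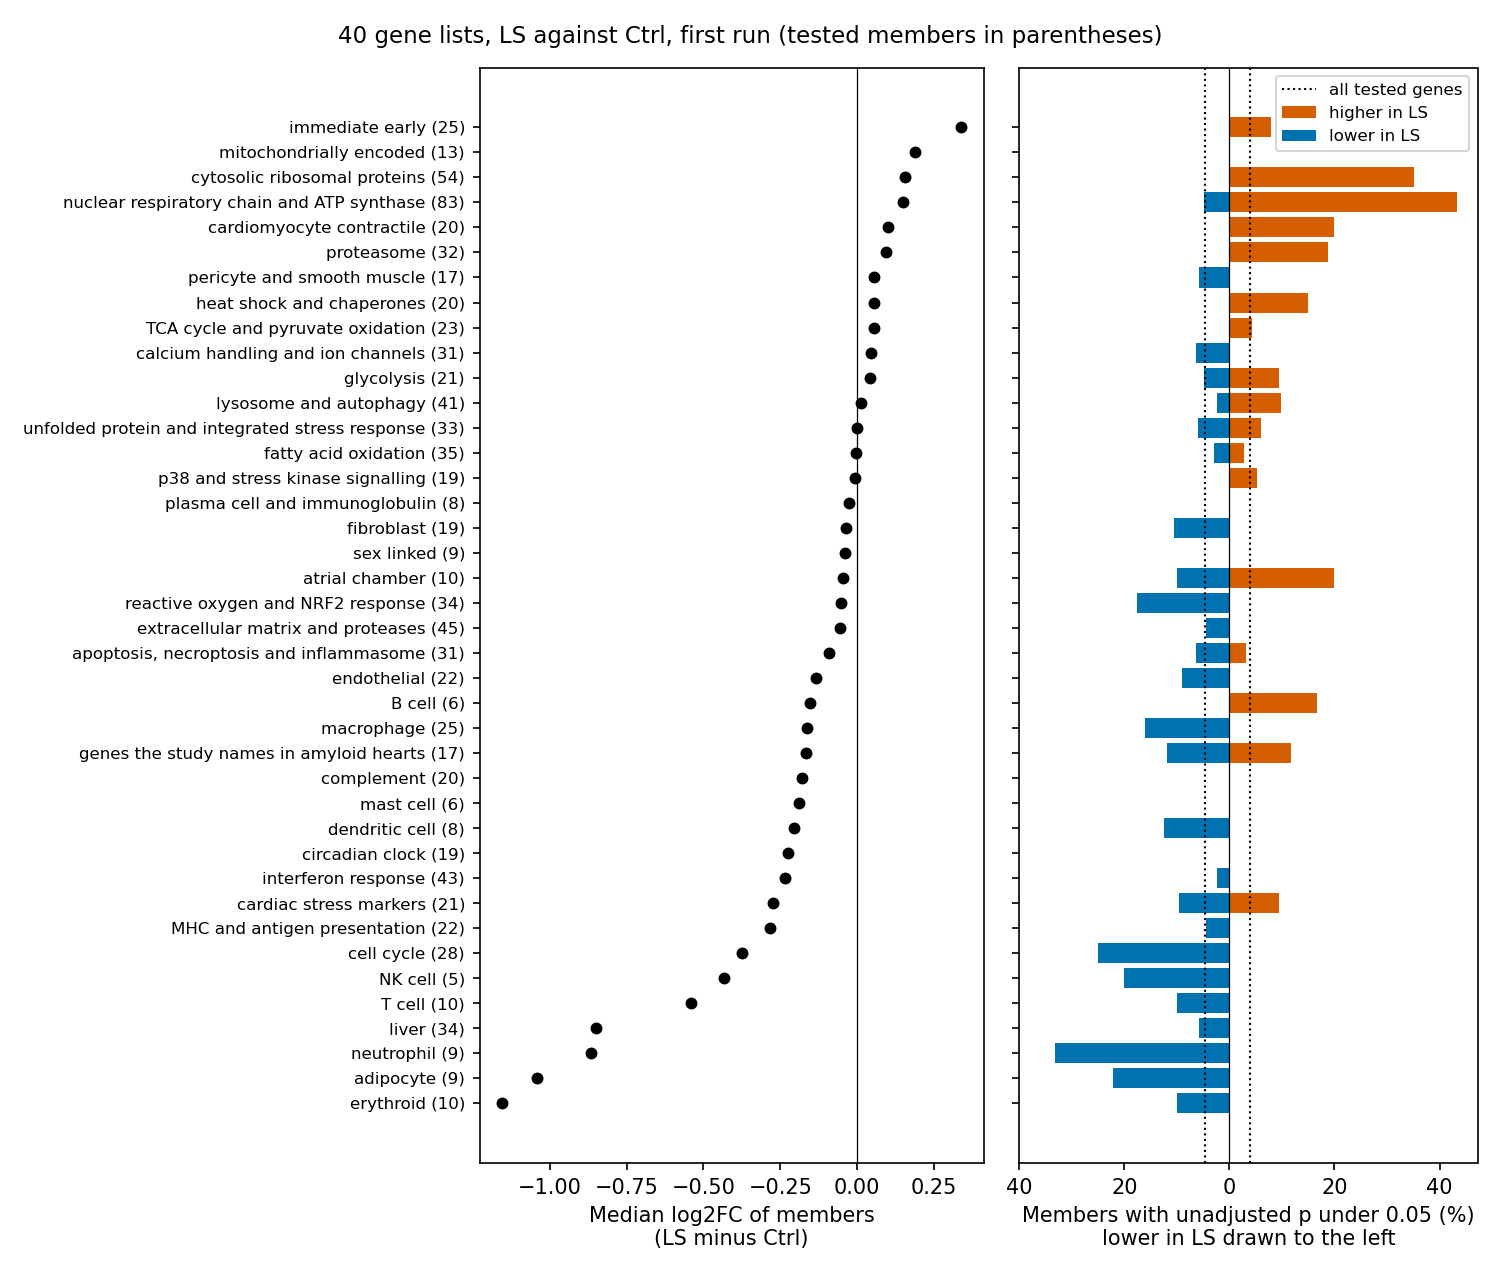
Median log2FC (LS minus Ctrl) of the tested members of 40 gene lists (left, number of members in parentheses) and the percentage of members with an unadjusted p under 0.05 that were higher (right, orange) or lower (blue) in LS; dotted lines give the same percentages over all tested genes, 4.01% and 4.58%. Nuclear respiratory chain and ribosomal protein genes reach 43.4% and 35.2% higher, and no member of a list was called, where 0.029% of all tested genes were.

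Small differences in one direction were found among nuclear genes of the respiratory chain and ATP synthase. The list had 83 tested entries, in which duplicate entries of a gene count separately. Of these entries, 67 were higher in LS, against 47.2% of all genes. An unadjusted p under 0.05 and a higher value were found for 36 entries (43.4%), against 4.01% of all genes. The median log2FC was 0.15, and none was called, where 0.029% of all tested genes were. Ndufb9, a complex I subunit, was at 348.1, 366.6, 337.4 and 364.4 CPM in LS and 295.9, 305.9, 313.4 and 308.9 CPM in Ctrl, without overlap. Atpif1, the inhibitor of ATP synthase, was at 0.44 (p 0.00274). The reverse held for 4 entries, with Cox8a of complex IV at -0.73 and Atp5d of ATP synthase at -0.23. The number of higher entries at that level was 23 without LS2, 14 with the liver genes as a covariate, 5 in the 20-mouse fit with a run term and 1 after ComBat-seq.

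All 13 mitochondrially encoded genes had a log2FC above 0 (median 0.19), none with an unadjusted p under 0.05. Their share of counts was 31.3% to 37.1% in LS and 29.4% to 35% in Ctrl, with overlap. Ribosomal protein genes of the cytosol had 51 of 54 members higher and 19 (35.2%) at an unadjusted p under 0.05, with a median of 0.15. Rpl22 (0.18) and Rps28 (0.30) had the lowest p, and Rplp2 (-0.07) and Rps10 (-0.05) were among the 3 below 0. Without single mice this number ranged from 6 (without LS2 or Ctrl4) to 37 (without LS4), and it was 2 with the liver genes as a covariate. These genes have many pseudogenes that may take some of their reads. Proteasome genes were higher in 25 of 32 (6 at that level, 18.8%, median 0.09). Contractile genes of cardiomyocytes were higher in 16 of 20, 4 of them (20%) at that level, against 4.01% of all genes. Those of lowest p were Myoz2 (0.28) and Nebl (0.19), while Tcap (-0.24) was lower in value, and the median of the list was 0.10. Fatty acid oxidation genes had a median of 0, with 1 gene at that level in each direction among 35.

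No immune list had a called member, where 0.029% of all tested genes were called. Of 43 interferon response genes, 3 were higher in value and the median was -0.23, and the summed level was 402.1, 881.3, 539.1 and 427.9 CPM in LS against 992.1, 676.5, 629.5 and 485.9 CPM in Ctrl, with overlap. Oas2 (-0.80) had an unadjusted p under 0.05 and Rsad2 (-0.78) did not, and the differences of Cxcl10 (0.50) and Usp18 (0.18) turned negative without LS2. The list's median was -0.42 without LS2 and 0.03 without Ctrl1. All 22 genes of MHC and antigen presentation were lower in value (median -0.28, or -0.43 without LS2 and -0.16 without LS4), 1 of them at that level. The summed level of 6 B cell genes was 16.52, 15.8, 14.81 and 15.32 CPM in LS and 12.69, 10.34, 11.42 and 11.75 CPM in Ctrl, higher in every LS heart. Ebf1, also a stromal factor, made most of that sum, at 11.91 to 13.94 CPM in LS and 8.613 to 10.52 CPM in Ctrl, and was the one B cell gene at an unadjusted p under 0.05. Among other B cell genes, Bank1 (0.82) was higher in value and Cd79b (-0.45), Cd79a (-0.29) and Ms4a1 (-0.01) were lower.

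Macrophage genes were lower in value in 22 of 25 (median -0.16, or -0.28 without Ctrl4), and 4 were at that level, among them Itgam (-0.51), the αM integrin gene, whereas Cd209g (0.39) and Cx3cr1 (0.25) had p of 0.392 and 0.686. Neutrophil genes had a median of -0.87 over 9 genes (-1.21 without LS1 and -0.40 without Ctrl2), but the LS levels were near the floor, as Retnlg was at 0.06557 to 0.1161 CPM in LS and 0.1934 to 1.877 in Ctrl and S100a8 at 0.3199 to 0.8899 against 0.793 to 4.227. Mmp9 was at 0.24 (p 0.367). Ctrl4 held the highest level of both Retnlg and S100a8. Erythroid genes, all 10 lower in value (median -1.15), followed Ctrl2, with Hba-a1 at 3349 CPM and Alas2 at 333.1 CPM there and at most 938.7 and 98.89 CPM in the other 7 hearts, and without Ctrl2 the median was -0.20.

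Genes of the liver were measured in the heart samples at levels that differed between mice. Alb was at 104.9, 2.708, 86.25 and 8.049 CPM in LS and 128.3, 19.68, 199.2 and 97.93 CPM in Ctrl (log2FC -1.14 ± 1.04, FDR 0.75). LS2 and LS4 were low together with Ctrl2. All 34 liver genes had a log2FC below 0 (median -0.85), and 2 were at an unadjusted p under 0.05, Mup20 (-3.93) and Mup3 (-2.09), which belong to a family of near-identical genes. The first principal component over the 500 most variable genes (37.1% of variance) put LS2, LS4 and Ctrl2 on one side and the other 5 hearts on the other. Its score did not separate the groups (LS minus Ctrl -20.2, exact permutation test, two-sided, p = 0.257, adjusted over 2 components 0.514), and neither did that of the second component (4.83, exact permutation p = 0.743), where 70 splits allow a p of 0.0286 at the least. On the second component the male-type hearts LS1, LS4 and Ctrl4 scored 7.946, 20.89 and 29.34. The other 5 hearts, of female type, scored between -14.89 and -7.737. The part of the liver genes in the lower or higher values of other lists was not tested beyond the covariate fits given here.

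Matrix genes, which remodel in amyloid hearts, had a median of -0.05 over 45 genes (0.18 and 0.19 in the 2 fits of all 20 mice), with 2 lower at an unadjusted p under 0.05, Loxl1, a collagen crosslinking enzyme (-0.35), and Adam15 (-0.24). Tgfb2 (0.28) and Lama4 (0.19) had the lowest p of the higher ones, at 0.0545 and 0.0881. Cell cycle genes were lower in value in 24 of 28 (median -0.37) and 7 (25%) were lower at that level, among them Ccna2 (-0.94) and Cenpe (-0.77), at most 3.153 CPM in any heart, while Pcna was at 0.07 and Cenpf at 0.07. Without Ctrl1 the median was -0.08. Immediate early genes had a median of 0.34 over 25 tested entries, in which duplicate entries of a gene count separately. Nr4a1 was at 29.59, 22.4, 7.019 and 48.24 CPM in LS and 11.53, 6.762, 9.893 and 16.83 CPM in Ctrl (log2FC 1.25, unadjusted p 0.0364). LS3 was within the Ctrl range and LS4 was the highest. The summed level of the list was 1130 CPM in LS4 and 337.5 to 646.5 CPM in the other 7 hearts, and without LS4 the list's median was -0.22. Myc (-0.96, p 0.112) and Ier3 (-0.20, p 0.291) were lower in value.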

How the data were processed

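The authors sequenced stranded, polyadenylated, paired-end RNA libraries of the heart apex (20 mice, 2 runs), which were aligned to GRCm38 with STAR and quantified with Salmon in the nf-core workflow. The authors deposited estimated counts of 25308 genes, without normalization, of which 14.2% were not whole, and all were rounded here. Groups, mouse numbers and runs came from the labels, and only LS1 to LS4 and Ctrl1 to Ctrl4 (first run) entered the main comparison. With edgeR 4.0.16 in R 4.3.3, filterByExpr (minimum count 10) kept 13788 genes, TMM set the library scale, and groups were tested two-sided with glmQLFit and glmQLFTest. SE of log2FC came from the F statistic and 95% intervals from limma-voom (limma 3.58.1). DESeq2 1.42.0, ComBat-seq (sva 3.50.0) and the other alternatives are given in the closing section. The study's own analysis adjusted for the run with ComBat, which the choice of a single run replaces here. A count of 3, 0.0499 to 0.0682 CPM, was taken as the floor, which covers counting error only. Coordinates are those of GENCODE M21 on GRCm38 (98.9% of tested genes matched), while the methods of the study name a later annotation. The steps were tested on simulated data.

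The members and gene lists were chosen with earlier results of these data known. Named genes are the called genes, those of next lowest p with a mean of at least 1 CPM until 25 were named, the 2 members of lowest p in each direction of the lists described, immunoglobulin and sex-linked genes, Alb, the genes the study names in amyloid hearts, and the 5 tested genes nearest to Igkc on each side, and some genes that meet these rules are not reported here. Genes 10 to 15 Mb before Igkc were picked after their values were seen, and markers of the tissue were taken from the list of cell type markers.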

Additional observations from a re-analysis of the deposited data

Results flagged for a closer look

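Single mice stood far from the other 3 of their group in 17 of 248 groups of named genes (6.85%), where chance gives about 5%. In each of these the gap to the nearest mouse was above Dixon's 95% critical value for 4 samples. Of these, 4 were Y-linked genes in Ctrl4, the male-type Ctrl heart, with Uty at 29.5, Eif2s3y at 65.15, Ddx3y at 118.2 and Kdm5d at 18.18 CPM.

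Ctrl2 stood apart in Hba-a1 at 3349 CPM (584.1 to 938.7 in the other Ctrl hearts), in Alas2 at 333.1 CPM (54.08 to 77.91) and in Mmp9 at 2.029 CPM (1.156 to 1.248). Ctrl1 stood apart in Mup3 at 18.9 CPM (1.592 to 2.527), Usp18 at 8.143 CPM (2.275 to 2.474), Iglc1 at 3.849 CPM (0.1327 to 0.7296), Cenpe at 1.644 CPM (0.8898 to 0.9668) and Mmp12 at 0.9091 CPM (0.1849 to 0.2313). In Ctrl4, Myc was at 7.222 CPM (1.294 to 2.089).

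Among LS hearts, LS4 stood apart in Ier3 at 29.71 CPM (17.11 to 18.67), Cenpf at 79.92 CPM (53.48 to 56.1) and Mup20 at 0.8884 CPM (0.05645 to 0.1161), and LS1 in Rps10 at 154.1 CPM (120.6 to 122.2). None of the 4 called genes was among these.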

How the results depend on the processing

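The calls of Osbpl3 and Pyurf held under each of 21 alternatives, with a log2FC of 1.45 to 1.58 and of -1.42 to -1.32. The count of 4 called genes was the same without a filter, with a stricter filter, with RLE scaling, without mitochondrially encoded genes and with limma-voom, and 3 with 15 mice, with 20 mice and a run term, and with the liver genes as a covariate. After ComBat-seq it was 6, of which Osbpl3 and Pyurf were shared and Aqp6, Igkc, Gcnt1 and Vdac3-ps1 were not. It was 7 by the likelihood ratio test and 13 by DESeq2 (24 at any fold), and 2 with Xist as a covariate. Leaving out 1 mouse at a time gave 2 to 4 called genes, with and without the fold, and 2 to 4 on chromosome 6, where 2 remained with the liver genes as a covariate. The replicate numbers were not treated as pairs in the main comparison. Same-numbered LS and Ctrl libraries correlated in their deviations at 0.0668, 0.225, 0.262 and 0.0899. Of the 4 LS libraries, 2 correlated best with their own number, which does not settle whether the numbers pair the mice. With the replicate block 2 genes were called, with and without the fold and on chromosome 6.

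Counts at an unadjusted p were put through the same alternatives, a choice made after seeing the data. The number of genes at an unadjusted p under 0.05 was 447 after ComBat-seq and 745 to 1407 with single mice left out (745 without LS2). In the stretch 10 to 15 Mb before Igkc it was 4 and 3 in the 20-mouse fits with a run term and after ComBat-seq. Higher respiratory chain entries numbered 5 and 1 in these fits, 14 with the liver genes as a covariate, and 23 to 47 with single mice left out. Higher ribosomal protein genes numbered 10 by the likelihood ratio test, 1 after ComBat-seq, 32 with Xist and 2 with the liver genes as a covariate, and 6 to 37 with single mice left out. The score difference on the second principal component was -22.7 over all tested genes and -10.7 without liver and sex-linked genes. It ranged from -13.3 to 1.59 with single mice left out. The sign of each component was set by its correlation with Alb, and scores over more genes are on another scale. A change in the sign or size of this score difference is therefore not by itself a change between the groups. In the second run, the 5 mice alone gave 0.77 for Osbpl3, -1.199 for Pyurf and -0.59 for Snx10, none of them called. The cause of these shifts was not tested.

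Medians of lists moved by more than 1 SD of the list's mean level between mice in 31 of 837 refits. Within that spread the median of immediate early genes still ran from -0.22 to 0.94, of interferon genes from -0.42 to 0.030 and of NK cell genes from -0.77 to -0.078 with single mice left out. In the 20-mouse fits with a run term and after ComBat-seq they were 0.048 and 0.087 for cardiac stress markers, -0.26 and -0.091 for neutrophil genes, -0.47 and -0.42 for B cell genes, 0.18 and 0.19 for matrix genes and 0.18 and 0.22 for genes the study names in amyloid hearts, and after ComBat-seq 0.015 for the NRF2 response and 0.070 for lysosomal genes. For B cell genes the median was -0.37 without a filter, 0.48 with the stricter filter and -0.45 with 15 mice, and for adipocyte genes -0.30 with the stricter filter, -0.61 with limma-voom, -0.48 with Xist and -0.36 with the liver genes as a covariate. With single mice left out, medians ran from -0.48 to 0.026 for B cell, -0.82 to -0.092 for dendritic cell, -1.30 to -0.47 for adipocyte, -1.46 to -0.20 for erythroid, -0.16 to 0.091 for atrial and -0.47 to -0.076 for cell cycle genes.

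Among single genes that were not called, the sign was opposite in the fit of all 20 mice with a run term for Fn1 (0.14), Mmp19 (0.18), Cd209g (-0.092), Col16a1 (0.13), Timp1 (0.14), Mmp3 (0.19), Rps10 (0.0082), Ltbp2 (0.23), Usp18 (-0.13), Eif2ak3 (0.063), Col1a2 (0.39) and Iglc1 (0.60). It was opposite after ComBat-seq for Fn1 (0.16), Mmp19 (0.10), Cd209g (-0.11), Col16a1 (0.088), Timp1 (0.22), Mmp3 (0.28), Gng12 (0.038), Rps10 (0.038), Ltbp2 (0.23), Usp18 (-0.20), Eif2ak3 (0.079), Col1a2 (0.33) and Iglc1 (0.94). The sign turned with the liver genes as a covariate for Col16a1 (0.049), Ltbp2 (0.015), Cenpf (-0.12), Col1a2 (0.13), Iglc1 (0.89) and Ighm (0.029). A change of sign was seen with Xist as a covariate for Gpnmb (-0.19), Col1a2 (0.020) and Ighm (0.26). So it was with limma-voom for Gpnmb (-0.10), Col1a2 (0.0057), Iglc1 (0.50) and Ighm (0.078). The sign also differed with the replicate block for Gpnmb (-0.030), Col1a2 (0.0041), Iglc1 (0.49) and Ighm (0.068). It differed with 15 mice in the fit for Ighm (0.0016). No value was taken for Xist or liver genes from the fits in which they were the covariate. Leaving out 1 mouse at a time turned the sign of Irf7 (-0.90 to 0.038), Mmp12 (-0.99 to 0.15), Timp1 (-0.52 to 0.26), Cxcl10 (-0.24 to 0.81), Mmp3 (-0.34 to 0.10), Thnsl2 (-0.0054 to 0.12), Rps10 (-0.15 to 0.0080), Gadd45a (-0.21 to 0.0034), Cx3cr1 (-0.53 to 0.55), Ltbp2 (-0.27 to 0.041), Usp18 (-0.20 to 0.86), Cenpf (-0.088 to 0.32), Kdm5d (-0.32 to 6.03), Gpnmb (-0.24 to 0.42), Adamts2 (-0.094 to 0.17), Eif2ak3 (-0.050 to 0.030), Col1a2 (-0.12 to 0.098), Iglc1 (-0.82 to 1.74) and Ighm (-0.23 to 0.15). With 4 mice a group, a difference within the spread between mice was not detectable, and values near the floor of 3 counts are the least certain.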

Other observations

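Other cell types and functions of the heart were described by lists that had no called member, where 0.029% of all tested genes were called. Of 31 genes of calcium handling and ion channels, 19 were higher in value in LS (median log2FC 0.05) and 26 had a 95% interval within a fold of 1.5. All 23 genes of pyruvate oxidation and the TCA cycle had an interval within that fold (median 0.05), and so had 20 of 21 glycolysis genes (median 0.04). Endothelial genes had a median of -0.13 over 22, pericyte and smooth muscle genes 0.06 over 17, and fibroblast genes -0.04 over 19. Among immune cell genes, 1 of 10 for T cells and 0 of 9 for neutrophils had such an interval.

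T and NK cell genes were low in both groups, with a summed level of 2.594 to 5.068 CPM in LS and 3.629 to 6.731 CPM in Ctrl over 10 T cell genes (median -0.54), and 0.4975 to 2.283 against 1.573 to 2.495 CPM over 5 NK cell genes (median -0.43). Complement genes were lower in value in 17 of 20 (median -0.18), and the 19 clock genes had a median of -0.22 with no gene at an unadjusted p under 0.05. Adipocyte genes had a median of -1.04 over 9 genes. With single mice left out that median ran from -1.30 to -0.47.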
